A study of Mus musculus with 18 samples.

Results

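The 5 wild-type (WT) libraries described here were made from mouse lung cells captured with magnetic beads on EpCAM, a surface glycoprotein of epithelial cells. They were chosen by their titles alone and are 5 of the 18 libraries of a study of the long non-coding RNA Falcor, which lies beside the transcription factor gene Foxa2. The other 13 libraries are from Falcor-/-, Foxa2+/- and Falcor+/-;Foxa2+/- mice and were not analysed here. The WT mice carried neither altered allele, received no stated treatment and were 10 to 12 weeks old. The labels give no strain, sex or purity of the captured fraction. They also do not say whether each library came from its own mouse, so the spread between the 5 libraries, called WT 1 to WT 5 below, may be in part technical. Total RNA was sequenced, and each library holds a log2 level for the same 15544 genes.

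As background, the mouse lung is lined by a few specialised epithelial cell types. In the alveoli, type 2 cells make and recycle surfactant, the mix of lipids and proteins that keeps the airspaces open, and flat type 1 cells form the surface for gas exchange. In the airways, club cells secrete secretoglobins and detoxify inhaled compounds, while ciliated cells carry motile cilia that clear mucus. Basal, mucous, tuft and neuroendocrine cells are rarer. EpCAM is found on most of these cells, although it is known to be weak on mature type 1 cells and absent from most endothelial, mesenchymal and blood cells.

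Every library had nearly the same distribution of values: among the highest 90% of ranks, 2 libraries differed by at most 0.0397 log2 units at the same rank. The median level was 11.03 in each library. A shift shared by most genes would therefore not be visible, each level is relative to the other genes of its library, and the reads behind a level are unknown. The deposited level also rose with gene length: its median was 12.16 in the longest 10% of genes and 8.39 in the shortest 10%. To set different genes against each other, log2 of the exonic length in kb was therefore subtracted, which is called the level per kb, and an order by the deposited level is given only as such and includes the effect of length. No groups were compared by a test, because all 5 libraries belong to a single group, and the values below are descriptions with the SD over n = 5 libraries.

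The label was first checked against 5 markers, and all 5 ranked high. Sftpc (ENSMUSG00000022097, chromosome 14), which encodes surfactant protein C of type 2 cells, had log2 levels of 18.73, 18.56, 18.73, 18.73 and 18.73 in WT 1 to WT 5. Scgb1a1 (chromosome 19), the main secretoglobin of club cells, had 17.67, 17.58, 17.67, 17.80 and 17.80. Foxj1 (chromosome 11), the transcription factor that switches on motile cilia, had 14.68, 14.35, 14.72, 14.89 and 14.72. In these 3 markers no library was more than 0.54 log2 units from another, and Foxj1 differed the most. Epcam itself (chromosome 17) had 13.75, 13.79, 14.00, 13.93 and 13.95, with an SD of 0.11. Hopx (chromosome 5), a homeodomain cofactor of type 1 cells, had 14.27, 14.29, 13.53, 14.47 and 14.62, and WT 3 stood below the other 4 libraries. Per kb, Scgb1a1 and Sftpc ranked 1 and 2 of the 14994 genes with a length, Hopx ranked 195, Foxj1 265 and Epcam 429.

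Genes of surfactant and of airway secretion led the ranking. By the level as deposited, Sftpc was first with a mean of 18.70 ± 0.08, and Sftpa1, encoding surfactant protein A, was second with 18.59 ± 0.08. Sftpc held the top rank in WT 1, WT 3, WT 4 and WT 5, and Sftpa1 held it in WT 2. Slc34a2, the phosphate transporter of type 2 cells, followed with 18.34 ± 0.18, and the mitochondrial mt-Co1 with 18.30 ± 0.11. Sftpb (surfactant protein B, 18.27 ± 0.11), Lyz2 (lysozyme, 18.26 ± 0.03), Cbr2 (carbonyl reductase of the lung, 18.22 ± 0.18) and Cd74 (the invariant chain of MHC class II, 17.87 ± 0.10) came next. Because all libraries share the same set of top values, an SD this small at the top of the table reflects a gene keeping or swapping its rank.

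Dividing by length changed the order. Scgb1a1 then came first at 18.77 log2 units per kb, ahead of Sftpc at 18.65, Lyz2 at 17.87, Cbr2 at 17.81, mt-Co1 at 17.67, mt-Cytb at 17.34, Sftpb at 17.29, Cd74 at 17.12 and Sftpa1 at 17.08. Among these 9 genes, the means of neighbours in the order lay closer together than the range of either gene over the libraries, except between Sftpc and Lyz2 and between mt-Co1 and mt-Cytb, so the other neighbours were not separated beyond their spread. Rank 3 was held by a predicted miRNA gene of 57 bases, a length at which the division is least sure. Of the 50 genes of highest deposited level, 11 were on the list of type 2 genes, 4 on the club list, 4 on the MHC class II list and 6 were encoded by the mitochondrial genome. Only 30 of these 50 were also among the 50 highest per kb. On the linear scale the 10 highest genes held 4.09% of the summed deposited level, the 50 highest 10.2% and the 1000 highest 42.6%.

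**Figure D1:**
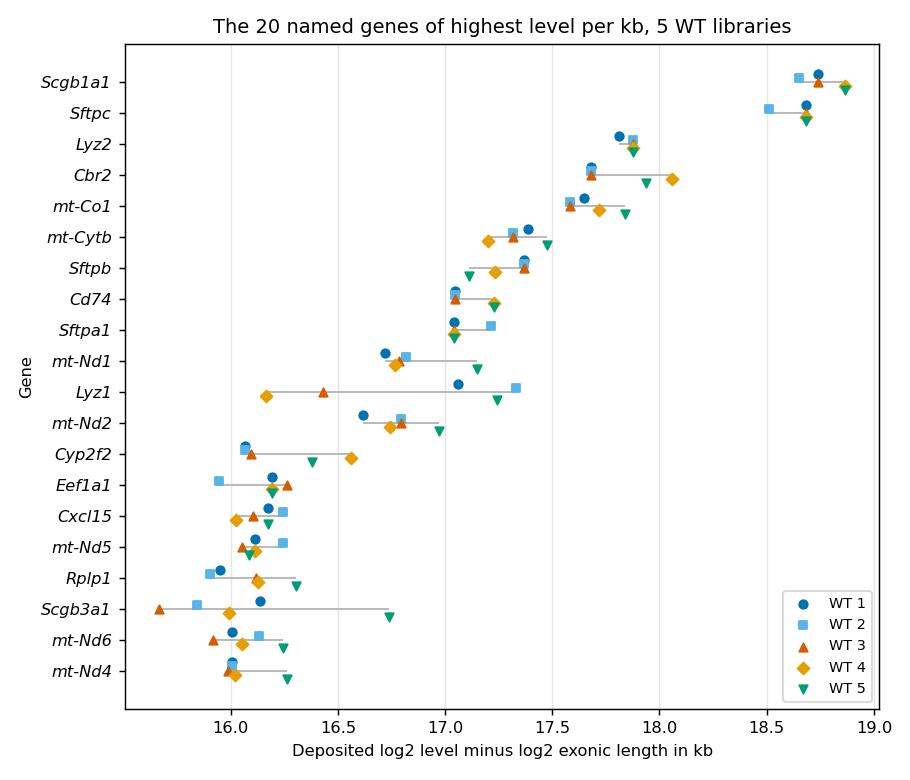
The 20 named genes of highest level per kb (vertical axis) with their level in each of the 5 WT libraries (horizontal axis, deposited log2 level minus log2 exonic length in kb; grey line, range over the libraries). Scgb1a1 and Sftpc lie apart from the rest at 18.77 and 18.65, and Scgb3a1 and Lyz1 have the widest ranges of the 20.

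Type 2 genes formed the list with the highest levels among the 30 cell type lists. All 26 were in the table, and 25 of the 26 were in the top 10% of genes by level per kb. Their median per kb was at percentile 99.3. Steady members included Lyz2 and Sftpb, while Chil1, which encodes a chitinase-like lectin, had the largest SD of the list, 1.17, with levels of 17.11, 14.13, 16.20, 15.87 and 16.86. WT 2 stood below the other 4 libraries in Chil1 by 1.73 log2 units, although 14 of the 26 genes were highest in that same library, against 17.5% of all genes. The list mean was 15.87, 15.87, 15.88, 15.57 and 15.71 in WT 1 to WT 5. WT 4 held the lowest mean and 14 of the 26 lowest values, against 17.2% of all genes.

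Genes that make the surfactant lipids were lower in WT 4 and WT 5, and which of the 2 was the lowest changed from WT 4 to WT 5 when libraries were recentred on the reference genes. Their list had 33 of 34 genes in the table, and its mean was 13.62, 13.66, 13.59, 13.41 and 13.41. Scd1, the desaturase that makes monounsaturated fatty acids, had 17.98, 17.98, 17.98, 17.67 and 17.11, so that WT 5 was the lowest by 0.56 log2 units. Fasn, the fatty acid synthase, had 17.33, 17.40, 17.26, 16.77 and 16.80, with WT 4 and WT 5 below the other 3. Abca3, the lipid pump of the lamellar bodies in which surfactant is stored, had 17.16, 17.19, 17.03, 16.85 and 16.98. Fabp5, a fatty acid carrier, had the largest SD of the list, 0.51, and was lowest in WT 4 at 12.41. Pcyt1a, which catalyses a control step of phosphatidylcholine synthesis, was steady at 13.29 ± 0.06.

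Type 1 genes were also high, and differed between libraries in a single direction. All 24 were in the table, 18 were in the top 10% per kb, and the median was at percentile 93.8. Ager, the receptor for advanced glycation end products and a classical type 1 marker, had 16.85, 16.66, 16.41, 16.92 and 16.92. The list mean was 14.66, 14.57, 13.95, 14.61 and 14.67. WT 3 held the lowest value in 22 of the 24 genes, against 22.2% of all genes. Without WT 3, the SD of the list mean fell to 0.05, against 0.31 with it. Igfbp2, an IGF-binding protein of type 1 cells, had the largest SD of the list, 0.87, with 13.36, 12.15, 11.72, 12.34 and 13.79. In these bulk samples, fewer cells of a type and less RNA per cell cannot be told apart, here or for any list below.

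Club cell genes came next to the type 2 genes in level. Of 28 listed genes 27 were in the table, 23 were in the top 10% per kb, and the median was at percentile 98.1. Besides Scgb1a1 and Cbr2 the highest were Cyp2f2, a cytochrome P450 that activates naphthalene, with 17.09, 17.09, 17.11, 17.58 and 17.40, and Scgb3a1, another secretoglobin, with 15.40, 15.10, 14.92, 15.25 and 15.998. WT 4 held the highest value of 20 of the 27 genes, against 15.9% of all genes, and the highest list mean, 14.49, against 14.05 to 14.20 in the other 4 libraries. Without WT 4 the SD of the list mean fell to 0.07, against 0.19 with it. Bpifa1, a secreted antimicrobial protein of the upper airways, went its own way: it had 13.27, 15.76, 15.44, 15.53 and 14.07, and its range of 2.48 log2 units was the widest of the list. Ces1d, a carboxylesterase, was the steadiest member at 16.13 ± 0.09. In the wider list of xenobiotic enzymes, 20 of the 43 measured genes were highest in WT 4, against 15.9% of all genes. Of these 43 genes 13 are also on another list, as are 15 of the 27 club genes, so the counts may share genes.

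Ciliated cell genes were lower per kb than those of the other 3 main types, and few of them had a large SD. Of 54 listed genes 52 were in the table, 10 were in the top 10% per kb and 10 were below the median of all genes, and the median was at percentile 75.2. The highest were Tppp3, a tubulin-binding protein, with 15.36, 15.43, 15.66, 15.60 and 15.67, Tubb4b, a beta-tubulin of cilia, with 14.74, 14.80, 14.72, 14.98 and 14.92, and Foxj1. The list mean was 11.90, 11.94, 12.19, 12.16 and 11.99, and its lowest library was WT 1, or WT 5 after recentring on the reference genes. WT 3 held 27 of the 52 highest values, against 24.8% of all genes, and WT 4 held 15, against 15.9%. Ift172, a subunit of the intraflagellar transport machinery, had an SD of 0.06. Only 2 of the 52 genes had an SD of at least 0.5, against 9.81% of all genes. Small SDs were rare too, with 3 of the 52 below 0.1, against 22.8% of all genes. The median SD of the list was 0.192, against 0.169 over all genes.

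Genes shared by epithelial cells of all kinds were the steadiest of the cell type lists. All 20 were in the table with list means of 13.51, 13.53, 13.52, 13.62 and 13.62. None had an SD of at least 0.5, against 9.81% of all genes. Their median SD was 0.110 at a median level of 13.6, close to the 0.133 of the highest 10% of genes by level. Cldn3, a tight junction claudin, had 15.11, 15.11, 15.17, 15.14 and 15.12. Cdh1, the adherens junction cadherin, had 15.75, 15.71, 15.82, 15.72 and 15.56. Among the transcription factors of the lung epithelium, Cebpa, which acts in type 2 cell maturation, was at 15.32 ± 0.03, and Nkx2-1, which specifies lung identity, was at 15.48 ± 0.12 with WT 4 the lowest at 15.31. Of the 44 transcription factors, 7 had an SD below 0.1, against 22.8% of all genes.

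The study's own locus was measured in all 5 libraries. Foxa2, a forkhead factor of lung and gut epithelium, had 12.94, 12.99, 13.03, 13.03 and 12.83, an SD of 0.08. Its relative Foxa1 had 13.29 ± 0.15, and Foxa3 was near the bottom of the table with 6.23 ± 0.35. The lincRNA 9030622O22Rik, the gene symbol of Falcor, had 10.72, 10.21, 9.68, 9.71 and 10.59. WT 3 and WT 4 lay below the other 3 libraries in this RNA by at least 0.50 log2 units, and its highest level was 2.06 times the lowest on the linear scale. Foxa2 varied by no more than 0.20 log2 units over the same libraries. Both genes lie on chromosome 2, and no source used here says whether reads were counted by strand.

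The rarer epithelial types were low and more variable, and SD rose at low levels in general, as given below. Mucous genes reached percentile 51.8 per kb with 18 of 22 genes in the table, basal genes 31.8 with 16 of 17, tuft and ionocyte genes 23.4 with 9 of 18, and neuroendocrine genes 12.0 with 14 of 22. Clca1, a goblet cell product, had 10.92, 6.60, 9.34, 8.96 and 9.49, with WT 2 the lowest by 2.37 log2 units. Krt5, the basal keratin, had 10.93, 11.86, 11.23, 11.08 and 12.02, and Krt15 had 10.84, 11.92, 11.94, 11.83 and 12.26. WT 1 was the lowest in both. Stratified squamous genes differed most of these lists, with a list mean of 6.98 in WT 1 and 8.83 in WT 5. Krt13, a keratin of stratified epithelia, had 5.92, 8.26, 8.08, 7.54 and 10.71, and its partner Krt4 had 3.82, 7.77, 7.63, 5.08 and 10.59. WT 1 held 9 of the 11 lowest values, against 18.9% of all genes.

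Endothelial genes were plainly present, and separated WT 3 from the other libraries. Of 30 listed genes 29 were in the table, with a median at percentile 83.5 and a median per kb of 10.80, against 12.21 for the pan-epithelial genes. The list mean was 12.61, 12.86, 11.69, 12.90 and 13.12. All 29 genes were lowest in WT 3, against 22.2% of all genes, and 15 of the 29 lay at least 1 log2 unit below every other library there, against 1.13% of all genes. Cldn5, the endothelial claudin, had 13.41, 13.71, 12.32, 13.62 and 14.31. Plvap, a protein of capillary fenestrae, had 13.85, 14.16, 12.94, 14.42 and 14.49, and Sox18, an endothelial transcription factor, had 11.42, 11.88, 10.04, 11.84 and 12.28. Without WT 3 the SD of the list mean fell to 0.21, against 0.56 with it. WT 5 held 21 of the 29 highest values, against 25.5% of all genes.

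Mesenchymal lists showed the same low library. Fibroblast genes had list means of 11.68, 11.78, 11.15, 11.73 and 12.00, with 21 of 33 genes lowest in WT 3, against 22.2% of all genes, and smooth muscle and pericyte genes had 9.13, 9.22, 8.27, 8.89 and 9.50, with 13 of 17. Inmt, a methyltransferase abundant in lung fibroblasts, had 13.59, 13.93, 12.56, 13.55 and 14.35. Dcn, the matrix proteoglycan decorin, differed from that pattern with 10.13, 11.33, 11.48, 11.40 and 12.57. Globin genes were also lowest in WT 3: Hba-a1 had 9.69, 9.20, 7.80, 9.06 and 10.06, and Hbb-bs had 9.41, 8.60, 7.14, 8.92 and 9.46. Globin copies are nearly identical and can share reads, and 14 of the 19 red cell genes were not in the table. Hopx and the type 1 list moved with these endothelial, mesenchymal and red cell lists in WT 3, and the part of one in the other was not tested.

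Mesothelial genes, which mark the cells of the lung's outer surface, had the largest spread of any cell type list. The list mean was 8.34, 8.54, 9.09, 10.06 and 10.53, an SD of 0.95, and of 0.77 without WT 5. Upk3b, a uroplakin of mesothelium, had 7.90, 8.90, 9.82, 11.28 and 12.31. Wt1, the Wilms tumour transcription factor, had 4.18, 5.13, 6.53, 7.43 and 8.61, and Msln, mesothelin, had 11.65, 10.36, 10.67, 11.48 and 12.32. WT 5 held 11 of the 12 highest values, against 25.5% of all genes. Of 15 listed genes 12 were in the table, 6 of the 12 had an SD of at least 1, against 1.83% of all genes, and Krt19, which airway epithelium also expresses, varied least with an SD of 0.33.

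Blood cell genes were present and varied in several different patterns. Alveolar macrophage genes had list means of 10.72, 10.23, 11.56, 11.85 and 11.03, with 15 of 22 genes lowest in WT 2, against 15.8% of all genes, and 16 highest in WT 4, against 15.9%. Chil3, a chitinase-like protein of these cells, had 12.88, 12.43, 14.48, 14.92 and 13.84, and Ear2, an eosinophil-associated ribonuclease, had 10.67, 10.28, 12.27, 12.71 and 11.35. Close family members may share reads with both. Interstitial macrophage and monocyte genes followed another order, with list means of 11.40, 11.13, 11.07, 11.45 and 11.44. Of these 32 genes, 17 were lowest in WT 3, against 22.2% of all genes. Complement C1qa of interstitial macrophages had 13.97, 13.19, 13.08, 13.35 and 13.92. Neutrophil genes were low, with a median at percentile 27.6 per kb, and were highest in WT 4 and WT 2: Slfn4, a schlafen family gene, had 6.47, 9.29, 7.43, 9.88 and 7.17.

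Lymphocyte genes split by type. B and plasma cell genes had list means of 10.93, 10.59, 10.27, 10.05 and 11.19, with 15 of 26 genes lowest in WT 4, against 17.2% of all genes, and 16 highest in WT 5, against 25.5%. Jchain, the joining chain of secreted antibodies, had 15.07, 13.60, 14.15, 14.45 and 14.91, and Igkc, the kappa constant region, ranked 14 of all genes per kb with 15.74, 14.68, 15.09, 15.43 and 15.73. T and NK cell genes were the lowest of the 30 lists, at percentile 10.1 per kb, and 10 of the 38 were not in the table. Of the 28 measured, 12 were lowest in WT 3, against 22.2% of all genes, and 12 were highest in WT 5, against 25.5%. MHC class II genes ranked far higher, at percentile 96.3. Type 2 cells and antigen-presenting cells both express them. H2-Ab1 had 16.62, 16.77, 17.16, 17.19 and 16.89, and H2-Eb1 had 16.29, 16.41, 16.43, 17.16 and 15.54.

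**Figure D2:**
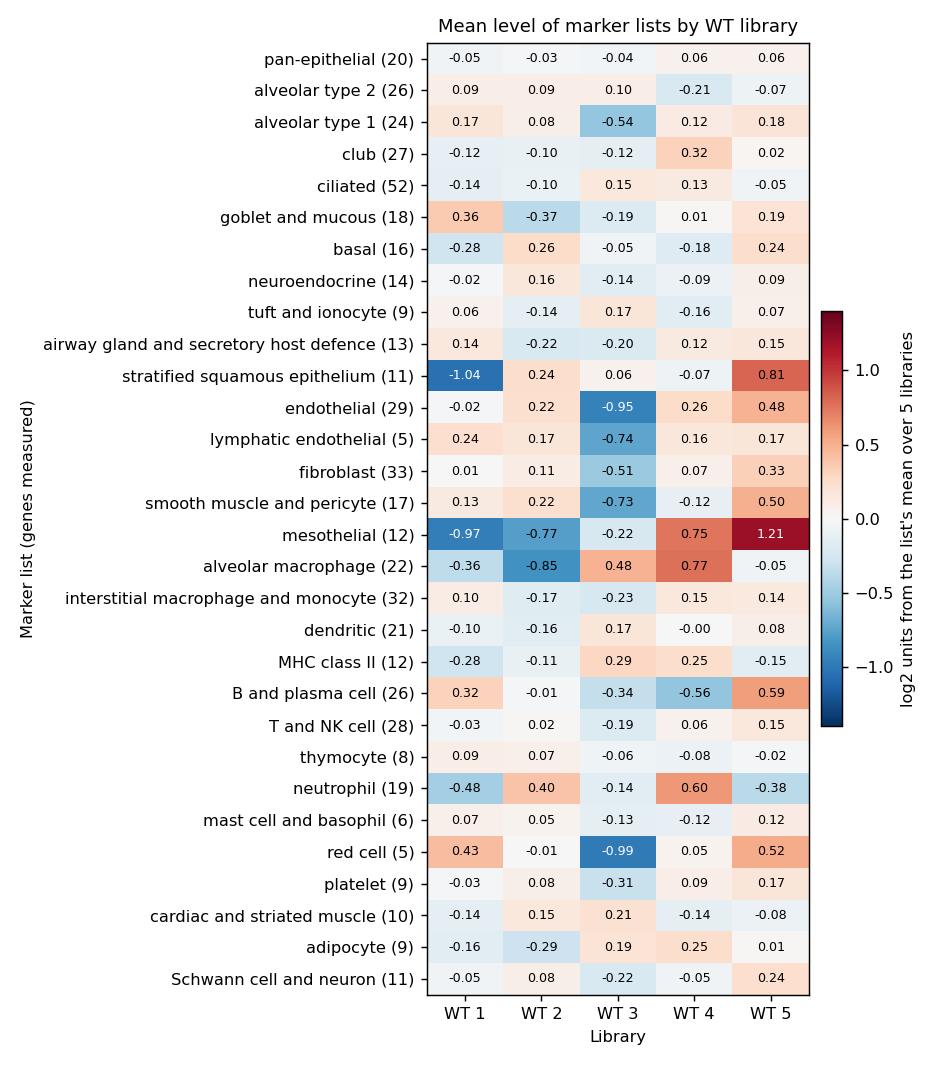
Mean level of each of the 30 cell type marker lists (rows, genes measured in brackets) in each WT library (columns), as the difference in log2 units from the mean of that list over the 5 libraries. The pan-epithelial row is nearly even, the endothelial row is lowest in WT 3 (list mean 11.69), and the mesothelial row runs from 8.34 in WT 1 to 10.53 in WT 5.

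All 5 libraries carried RNA of the Y chromosome. Ddx3y, a helicase gene on the Y, had 12.84, 12.95, 12.93, 12.80 and 12.61, and Eif2s3y had 12.41 ± 0.10. Xist, which coats the inactive X in females, was low in every library, from 5.91 to 7.32.

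The spread between libraries was small for most genes. Among the 15168 genes with a mean of at least 6, the median SD was 0.169 log2 units, and the SD ran from 0.0692 at the 10th percentile to 0.496 at the 90th. Over all 15544 genes, the median SD was 0.466 in the lowest 10% of genes by level and between 0.116 and 0.151 in each of the 6 highest bins of 10%. Of the 15168 genes, 278 (1.83%) had an SD of at least 1, and 3464 (22.8%) had an SD below 0.1. Pairs of libraries correlated across genes, which are not independent of each other, with Pearson's r from 0.960 (WT 3 and WT 5) to 0.981 (WT 1 and WT 2). WT 3 was at least 1 log2 unit from the gene's median in 521 genes and below it in 412 of them, while the other libraries had 195 to 300 such genes. Levels of 33 reference genes of general cell upkeep had a median SD of 0.126. Their median level was 13.965, and the highest 10% of genes by level had a similar median SD of 0.133.

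**Figure D3:**
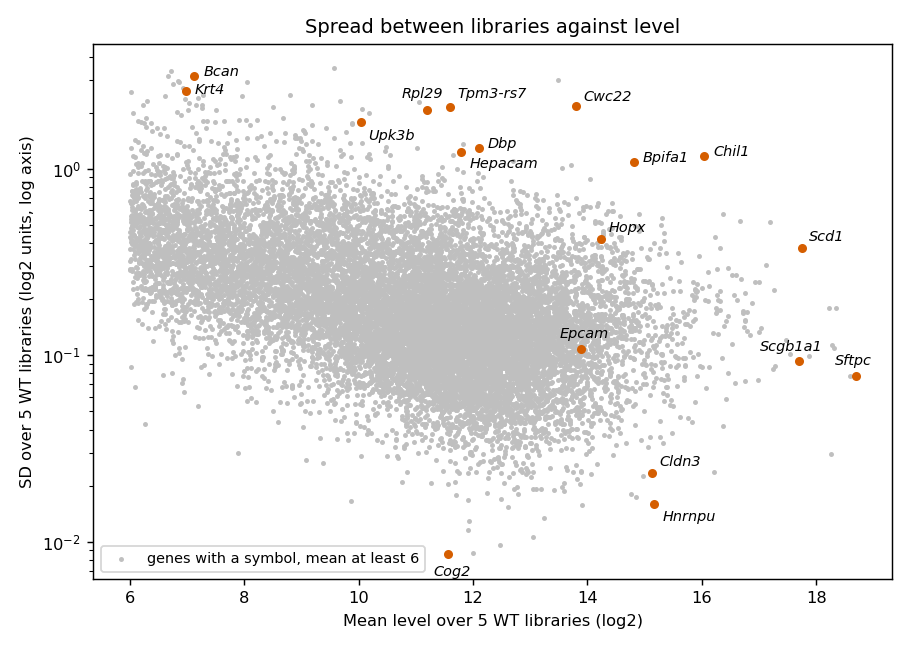
SD over the 5 WT libraries (vertical log axis, log2 units) against mean level (horizontal axis) for the genes with a symbol and a mean of at least 6; genes named in the text are in orange. The cloud narrows as the level rises, and Cwc22, Chil1 and Bpifa1 lie above most genes of their level, with SDs of 2.16, 1.17 and 1.09.

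The 100 genes of largest SD were unlike the table as a whole in kind. They held 42 protein-coding genes, 15 pseudogenes, 16 immunoglobulin or T cell receptor segments and 25 identifiers with no symbol. Among all 15168 genes with a mean of at least 6, these kinds numbered 13705, 382, 62 and 499. Of the 100 genes of smallest SD, 99 were protein-coding. Low genes made up most of the first set, whose median level was 7.34. Extreme cases with low means were Ang5, an angiogenin ribonuclease, with 7.70, 2.18, 9.44, 9.95 and 4.33, Bcan, the proteoglycan brevican, with 4.18, 10.27, 10.67, 6.003 and 4.51, and Spink5, a serine protease inhibitor, with 11.08, 4.78, 10.24, 9.11 and 5.08. Each was above 9 in some libraries and below 5 in at least 1 other. Galnt13, a glycosyltransferase, had 9.56, 3.79, 8.73, 8.64 and 3.55, with WT 2 and WT 5 low.

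At a mean of at least 10, the largest SD of any gene, 3.001, was that of the MHC gene H2-Ea-ps, annotated as a polymorphic pseudogene. It was named after its values were seen, and had 15.24, 15.48, 12.62, 8.59 and 15.53. The 100 genes of largest SD at this level held 3 pseudogenes, 13 antigen receptor segments and 7 identifiers with no symbol. With these and predicted genes left aside, the largest SDs belonged to Cwc22, Tpm3-rs7 and Rpl29. Cwc22, a splicing factor, had 15.39, 15.46, 11.44, 11.42 and 15.29, an SD of 2.16. Rpl29, a protein of the large ribosomal subunit, had 9.48, 9.44, 13.39, 13.49 and 10.21. WT 3 and WT 4 thus stood together in both genes, low in the first and high in the second. Tpm3-rs7, a related sequence of the tropomyosin gene Tpm3, divided the libraries otherwise with 13.02, 9.34, 9.16, 13.10 and 13.35. Cwc22, Tpm3-rs7 and Rpl29 are known to have near-identical copies or processed pseudogenes, so that reads may be assigned between copies and their levels are uncertain. Whether this bears on their spread was not tested. Fbp2, a fructose-bisphosphatase, had 12.53, 12.71, 11.11, 9.76 and 13.00, and Hepacam, a cell adhesion protein, had 13.16, 12.70, 10.62, 10.40 and 12.06. Again WT 3 and WT 4 were the low ones. Pianp was low in WT 2 alone, with 8.14 against 10.82 to 11.23, and Veph1 in WT 5 alone, with 9.94 against 12.02 to 12.31. Cep85, a centrosomal protein, had 10.38, 12.40, 12.60, 12.51 and 10.32, and was low in WT 1 and WT 5.

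**Figure D4:**
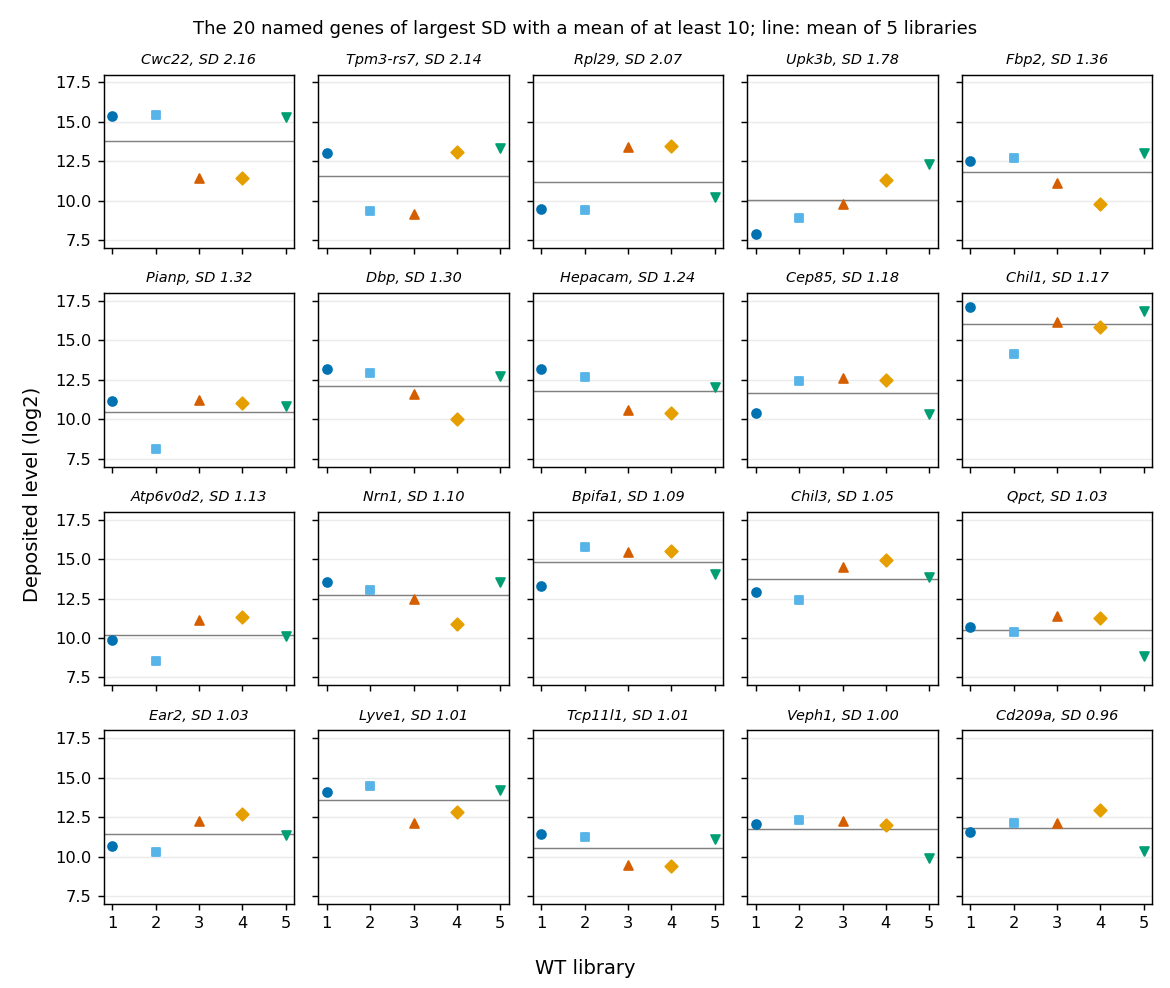
Deposited log2 level (vertical axes) in WT 1 to WT 5 (horizontal axes) of the 20 genes of largest SD with a mean of at least 10, pseudogenes, predicted genes and antigen receptor segments left aside; the grey line is the mean of the 5 libraries. Cwc22, Hepacam and Tcp11l1 are low and Rpl29 is high in WT 3 and WT 4, Pianp and Chil1 are low in WT 2, and Upk3b runs from 7.90 in WT 1 to 12.31 in WT 5.

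To describe such patterns over all genes, each gene's 5 levels were sorted and the widest step between neighbours was taken, a measure chosen after the values were seen. A step of at least 1 log2 unit occurred in 603 genes, 3.98% of those with a mean of at least 6. In 172 of them (1.13% of all genes) WT 3 alone lay below the step. Of the 172, 151 were protein-coding, a share near that of all genes, 13705 of 15168. WT 3 and WT 4 lay together on a side of the step in 95 genes (0.626%), above it in 44 and below it in 51. WT 5 alone lay below in 44, WT 4 alone in 36 and WT 2 alone in 35. Chromosome 7 held 15 of the 95 genes that set WT 3 and WT 4 apart (15.8%, against 7.33% of all genes). It is named because its share was the largest of any chromosome, and 11 of the 95 had no chromosome assigned. Of the 95 genes, 15 were pseudogenes, against 42 of the 603 genes with a step and 382 of all 15168. Examples with a mean of at least 10, besides those above, were Tcp11l1 with 11.40, 11.24, 9.46, 9.39 and 11.11 and Lyve1, a receptor of lymphatic endothelium and some macrophages, with 14.09, 14.48, 12.16, 12.84 and 14.23. Prox1, also on the lymphatic endothelial list but at a lower level, went the other way with 7.03, 6.99, 9.09, 8.86 and 6.42. Only 5 of the 8 genes of that list were in the table.

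The smallest SDs at a mean of at least 10 were near 0.01 log2 units. Cog2, a subunit of the Golgi tethering complex, had 11.56, 11.55, 11.56, 11.57 and 11.57, an SD of 0.0085. Timm29, of the mitochondrial import machinery, had 12.01 ± 0.0087, Mcmbp, a partner of the replicative helicase, 12.47 ± 0.0096, and Gspt1, a translation release factor, 13.05 ± 0.011. At higher levels Hnrnpu, a nuclear RNA-binding protein, was at 15.16 ± 0.016 and the actin-severing protein Dstn at 14.76 ± 0.018. An SD this small depends on how the libraries were scaled: after each library was recentred on its reference genes, only 1 of the 100 genes of smallest SD stayed among the 100 smallest. Leaving out 1 library kept 40 to 53 of them.

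Immediate early genes, whose transcription starts within minutes of a stimulus and which cell dissociation is known to induce, were high in all 5 libraries. Of 34 listed genes 33 were in the table, 22 were in the top 10% per kb and the median was at percentile 96.6. Fos, a subunit of the AP-1 transcription factor, had 16.06, 15.998, 16.31, 16.16 and 15.77, and its partner Jun had 16.24, 16.14, 16.48, 16.31 and 16.21. WT 3 was the highest in 27 of the 33 genes, against 24.8% of all genes, and WT 5 the lowest in 24, against 26% of all genes. The list mean was 13.48, 13.44, 13.99, 13.52 and 13.14. Nr4a3, an orphan nuclear receptor, had the largest SD of the list, 0.94, with 11.49, 11.30, 12.85, 10.96 and 10.30. Jund, which is known to be made constantly, was the steadiest at 15.10 ± 0.06.

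Circadian clock genes were ordered by library as well. As background, the activators Arntl and Npas2 drive Per, Cry, Nr1d and Dbp genes through E-boxes, and the arms of the loop peak at opposite times of day. Dbp, a transcription factor with a strong daily rhythm, had 13.17, 12.92, 11.63, 10.03 and 12.75, the largest SD of the list, 1.30. Its highest level was 8.84 times its lowest on the linear scale. Nr1d1, a repressor of Arntl, had 14.36, 14.34, 14.21, 13.56 and 14.08. WT 4 was the lowest in both. Arntl and Npas2, named after their values were seen, ran the other way: Arntl had 10.14, 10.09, 10.91, 11.47 and 10.28, and Npas2 had 9.04, 9.07, 10.02, 10.82 and 8.99. WT 4 was the highest in both and WT 3 the next. WT 4 held the lowest value of 10 of the 22 measured clock genes, against 17.2% of all genes. Csnk1d, a kinase of clock proteins, did not share in this and was at 14.06 ± 0.02. The labels used here give no hour of collection.

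The promoters of 5 of these genes are shown because the canonical E-box bears on the loop that links them. Dbp, Tef and Ciart were lowest in WT 4, Npas2 was highest there, and Per1 followed neither order. The 5 genes were chosen after the values were seen. The sequences are from RefSeq on GRCm38.p6, from 250 bases before to 50 after the most upstream listed start, read 5′ to 3′ along the gene's strand. Capitals mark the E-box, CACGTG, which reads the same on both strands and was the only motif searched. It occurs in 7.24% of the 27025 promoters in the table. Per1 (chr11:69098699-69098998, plus strand), Tef (chr15:81802423-81802722, plus strand) and Ciart (chr3:95882179-95882478, minus strand), encoding a period repressor, a factor related to Dbp and a clock repressor, hold it 1, 1 and 3 times in this window. Dbp (chr7:45704997-45705296, plus strand) and Npas2 (chr1:39194022-39194321, plus strand) have no match in this window.
Per1: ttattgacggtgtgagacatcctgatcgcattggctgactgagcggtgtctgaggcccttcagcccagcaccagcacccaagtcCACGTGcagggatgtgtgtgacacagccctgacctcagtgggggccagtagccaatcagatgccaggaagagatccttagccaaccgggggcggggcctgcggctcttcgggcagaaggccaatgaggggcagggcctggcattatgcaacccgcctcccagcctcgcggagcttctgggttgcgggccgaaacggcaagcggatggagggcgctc
Tef: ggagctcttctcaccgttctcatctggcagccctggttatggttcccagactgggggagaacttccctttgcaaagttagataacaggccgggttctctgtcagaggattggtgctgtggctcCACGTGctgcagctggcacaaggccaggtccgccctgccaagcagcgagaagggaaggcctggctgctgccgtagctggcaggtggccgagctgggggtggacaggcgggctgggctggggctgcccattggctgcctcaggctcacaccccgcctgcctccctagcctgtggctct
Ciart: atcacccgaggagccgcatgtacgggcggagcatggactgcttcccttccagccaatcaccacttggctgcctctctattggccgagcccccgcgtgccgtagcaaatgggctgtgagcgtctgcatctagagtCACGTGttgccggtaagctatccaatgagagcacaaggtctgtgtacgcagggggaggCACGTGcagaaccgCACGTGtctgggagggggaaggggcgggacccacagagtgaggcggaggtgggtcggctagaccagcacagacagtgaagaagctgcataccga
Dbp: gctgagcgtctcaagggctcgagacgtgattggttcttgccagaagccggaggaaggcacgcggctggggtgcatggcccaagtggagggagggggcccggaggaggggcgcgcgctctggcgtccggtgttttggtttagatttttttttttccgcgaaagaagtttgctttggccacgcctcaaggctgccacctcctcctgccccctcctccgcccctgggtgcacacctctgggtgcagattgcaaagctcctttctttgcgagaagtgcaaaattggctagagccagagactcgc
Npas2: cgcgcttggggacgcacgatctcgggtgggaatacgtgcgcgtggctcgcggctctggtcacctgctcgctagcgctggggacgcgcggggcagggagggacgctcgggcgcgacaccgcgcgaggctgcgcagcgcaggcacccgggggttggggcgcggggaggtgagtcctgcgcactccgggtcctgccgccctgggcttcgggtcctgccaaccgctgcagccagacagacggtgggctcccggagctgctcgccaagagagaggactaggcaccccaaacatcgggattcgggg

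In Per1 the E-box begins 166 bases before the start, in Tef 127 bases, and in Ciart 116, 58 and 44 bases. Ciart had levels of 11.37, 10.82, 10.62, 10.28 and 10.68 and Tef 14.90, 14.68, 14.41, 14.35 and 14.46, so that both were lowest in WT 4 and highest in WT 1. Per1 had 14.89, 14.57, 15.04, 14.38 and 14.29, was highest in WT 3 and is also known as an immediate early gene. A match is a description of the letters and not a site at which binding was measured.

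**Figure D5:**
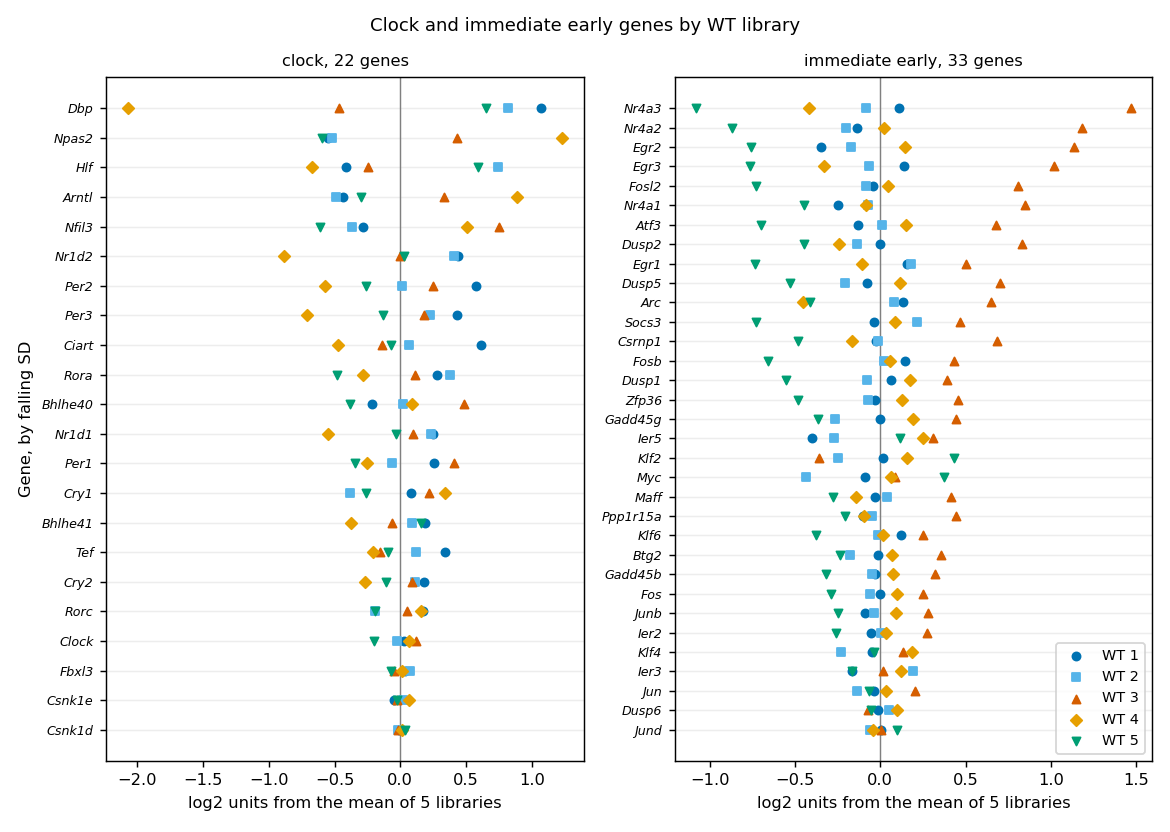
Level of each clock gene (left, 22 genes) and immediate early gene (right, 33 genes) in each WT library, in log2 units from the gene's mean over the 5 libraries (horizontal axes), with genes ordered by falling SD. On the left WT 4 lies lowest for Dbp, Nr1d2, Per3 and Nr1d1 and highest for Npas2 and Arntl; on the right WT 3 lies highest and WT 5 lowest for most genes.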

How the data were processed

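Total RNA of the captured cells was sequenced, and per the submitters' processing notes STAR, limma and the mouse build mm9 were used. No source used here gives their versions, the counter, annotation, filter on low genes or use of strand. The deposited values are log2 levels, one per gene and library, on a scale from 1 to 18.73. They are not counts, so depth is unknown, and how they were normalised is not stated.

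From these values the mean, SD and range over the 5 WT libraries were computed for 15544 genes with Python 3.11.15, pandas 2.3.3, numpy 2.4.6 and scipy 1.17.1. Of these genes 14994 matched a symbol and an exonic length in GENCODE vM21, which is on GRCm38, so gene coordinates in the submitters' build are not given, and promoters carry those of RefSeq on GRCm38.p6. SDs were summarised for 15168 genes with a mean of at least 6. The spread measures were tried on simulated independent normal values, in which the SD of some genes was raised. The shared distribution of the libraries and spread common to many genes were not simulated. Values of 13 other libraries were not used.

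The 49 gene lists and their members were chosen with earlier results of these data known. The 333 genes that could be named are the 5 markers, Foxa2 and 9030622O22Rik, the 20 highest by level and the 20 highest per kb, the 20 largest and 20 smallest SDs at a mean of at least 10, the 15 SDs largest for their level, and in each list the 4 highest per kb, the lowest and those of largest and smallest SD. Genes without a symbol, predicted genes, pseudogenes and antigen receptor segments were passed over in this choice unless they were list members. Genes named outside this rule, which are H2-Ea-ps, Arntl, Npas2, Tef, Ciart, Nr1d2 and Per3, were chosen after their values were seen. Promoter features of gene classes are not reported: only 79.8% of the protein-coding genes had a promoter in the RefSeq table, and some classes fewer, so that check is void.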

Additional observations from a re-analysis of the deposited data

Results flagged for a closer look

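In 21 of the 333 named genes (6.31%) and 2 of the 49 lists (4.08%), 1 library stood far from the other 4 by Dixon's criterion. Chance meets it in about 1 of 20 groups of independent normal values. Many named genes were chosen by their SD in these same libraries, and some of the highest genes have tied values. The shares therefore cannot be judged against that rate. WT 3 was the low library for the type 1 list at 13.95 and the lymphatic endothelial list at 9.42, and for Clec1b at 7.18, Gata2 at 11.66, Gprc5a at 15.13, Higd1b at 5.69, Reln at 4.48 and Thbd at 13.41. WT 2 was low for Eef1a1 at 17.26, Pianp at 8.14 and Sftpc at 18.56, and high for Dmkn at 13.36 and Sftpa1 at 18.73. WT 5 was low for Cox6a2 at 9.58 and Veph1 at 9.94, and high for Cox8a at 13.47, Resp18 at 9.03, mt-Nd1 at 17.09 and mt-Nd4 at 16.72. WT 1 was low for Cd1d1 at 8.93 and Lyz2 at 18.21 and high for Lamb3 at 14.22, and WT 4 was high for Hnrnpu at 15.19. Sftpc and Sftpa1 exchanged the top ranks in WT 2, so their values there follow from each other.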

How the results depend on the processing

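The ranking held when 1 library was left out, with 48 to 50 of the top 50 genes shared. Per kb, 30 of the 50 were shared. Of the 100 genes of largest SD, 58 were shared when the median absolute deviation was used, 54 with no filter on level and 9 at a mean of at least 10. Of the 100 genes of smallest SD, 40 to 53 were shared when 1 library was left out and 1 after recentring on the reference genes. The share of stepped genes with WT 3 alone below was 28.5%, against 12.4% at a step of at least 2 and 51.6% at a mean of at least 10, alternatives added after the data were seen. The causes of these differences were not tested. The median SD lay between 0.152 and 0.171 with 1 library left out and was 0.182 after recentring. The library with the lowest list mean was kept in 24 of 30 cell type lists after recentring and in 20 with medians. The other alternatives moved no result past its limit except 43 of 343 SDs of list means. No paired analysis was possible because a single group was described and no groups were compared. The alternative with 200 genes per class for promoter features was not given, since too few genes had a promoter. Depth is unknown, so counting error at low levels could not be separated from other spread.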

Other observations

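Genes of general processes also differed between libraries. Cell cycle genes were low, with a median at percentile 30.3 per kb. Of 40 genes, 32 were lowest in WT 2, against 15.8% of all genes, and 25 highest in WT 3, against 24.8%. Cytosolic ribosomal protein genes had list means of 14.01, 13.95, 14.24, 14.23 and 14.25 in WT 1 to WT 5. Of these 75 genes, 63 were highest in WT 5, against 25.5% of all genes. After recentring on the reference genes the count was 43, against 14.4% of all genes recentred in the same way. The highest list mean then moved to WT 3. Nuclear genes of oxidative phosphorylation were highest in WT 5 in 47 of 55, against 25.5% of all genes. After recentring this held for 38 of the 55, against 14.4% of all genes. Interferon response genes were lowest in WT 1 in 20 of 42, against 18.9% of all genes. Heat shock genes, which stress induces, were highest in WT 1 in 11 of 18, against 16.3% of all genes, and lowest in WT 2 in 10 of 18, against 15.8%.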
